A study of Rattus norvegicus with 10 samples.

Results

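The 32 genes described here encode the carriers that bring glucose into brain cells, the enzymes that break it down to pyruvate, those that turn pyruvate into lactate or pass it to the mitochondrion, and those that store and release glucose as glycogen. They were listed by gene symbol, with no threshold on measured values, though earlier results of these data were known when the list was chosen. All 32 were among the 17168 genes of the count table and among the 12161 tested. The libraries came from the left hippocampi of 10 rats, 1 per library, all male, of the TgF344-AD line and 11 months old. TgF344-AD is a rat model of Alzheimer's disease that carries mutant human amyloid precursor protein and presenilin transgenes, and every rat of both groups carried them. Wild-type rats were not analysed here. The 5 untreated rats ate plain chow. The 5 RG2833 rats ate chow with RG2833 at 750 mg per kg, a drug that blocks the histone-modifying enzymes HDAC1 and HDAC3, and treatment ran for 6 months from 5 months of age. The sentence of the design text that gives this timing names ibudilast, whereas the title and each rat's treatment label name RG2833. The comparison asked how gene expression in RG2833 rats differed from that in untreated rats.

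Glycolysis splits glucose into pyruvate and yields ATP without oxygen. In the brain, astrocytes hold nearly all of the glycogen and are thought to pass lactate to neurons through monocarboxylate carriers, while lactate dehydrogenase subunits favour lactate production or lactate use according to their mixture. Pyruvate dehydrogenase is the gate from glycolysis into mitochondrial oxidation, and pyruvate dehydrogenase kinases close it.

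The libraries held 15118203 to 18533520 expected counts each, and the 32 genes together took 1.29% to 1.64% of them. Markers of neurons, astrocytes, oligodendrocytes, microglia and endothelium were present in the libraries, with no listed gene of the table at 0. Of the dentate granule cell markers, Tdo2 was at 0 in all libraries. Choroid plexus markers summed to 8201 CPM (read counts relative to the scaled library total) in untreated replicate 2 and 9586 CPM in RG2833 replicate 1, and to between 14.1 and 294 CPM in the other 8 libraries. In these bulk libraries, fewer cells of a type and less RNA per cell cannot be told apart.

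None of the 32 genes differed between RG2833 and untreated rats after adjustment. With edgeR's quasi-likelihood F test and Benjamini-Hochberg adjustment, 0 of 32 had an adjusted p under 0.05, against 0% of all genes tested, where DESeq2 called 7 genes in all and none of the 32. At an unadjusted p under 0.05 there were 3 of 32 genes, the glycogen enzymes Pgm1, Gys1 and Pygm (9.38%, against 5.66% of all genes tested). All 3 had higher levels in RG2833 rats (2.94% of all genes tested) and 0 had lower ones (2.71% of all genes tested). For 0 of 32 genes were the levels of the groups free of overlap, against 1.00% of all genes tested. The fitted log2 fold changes, RG2833 over untreated, were above 0 for 17 genes and below 0 for 15, with a median of 0.01 and a range of -0.15 to 0.41, beside a median of -0.01 over all genes tested. The median log2 fold change of the members was not stable in sign: it was -0.0279 without untreated replicate 3, -0.00321 without untreated replicate 2, -0.019 with limma-voom, -0.0144 without both choroid-rich libraries and 0.0419 without untreated replicate 1. The count of 3 was 1 gene without untreated replicate 1, 4 or 5 or RG2833 replicate 4, where 5.21%, 4.88%, 4.62% and 3.07% of all genes had an unadjusted p under 0.05. It was 5 genes without untreated replicate 3, where 14.2% of all genes did.

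**Figure D1:**
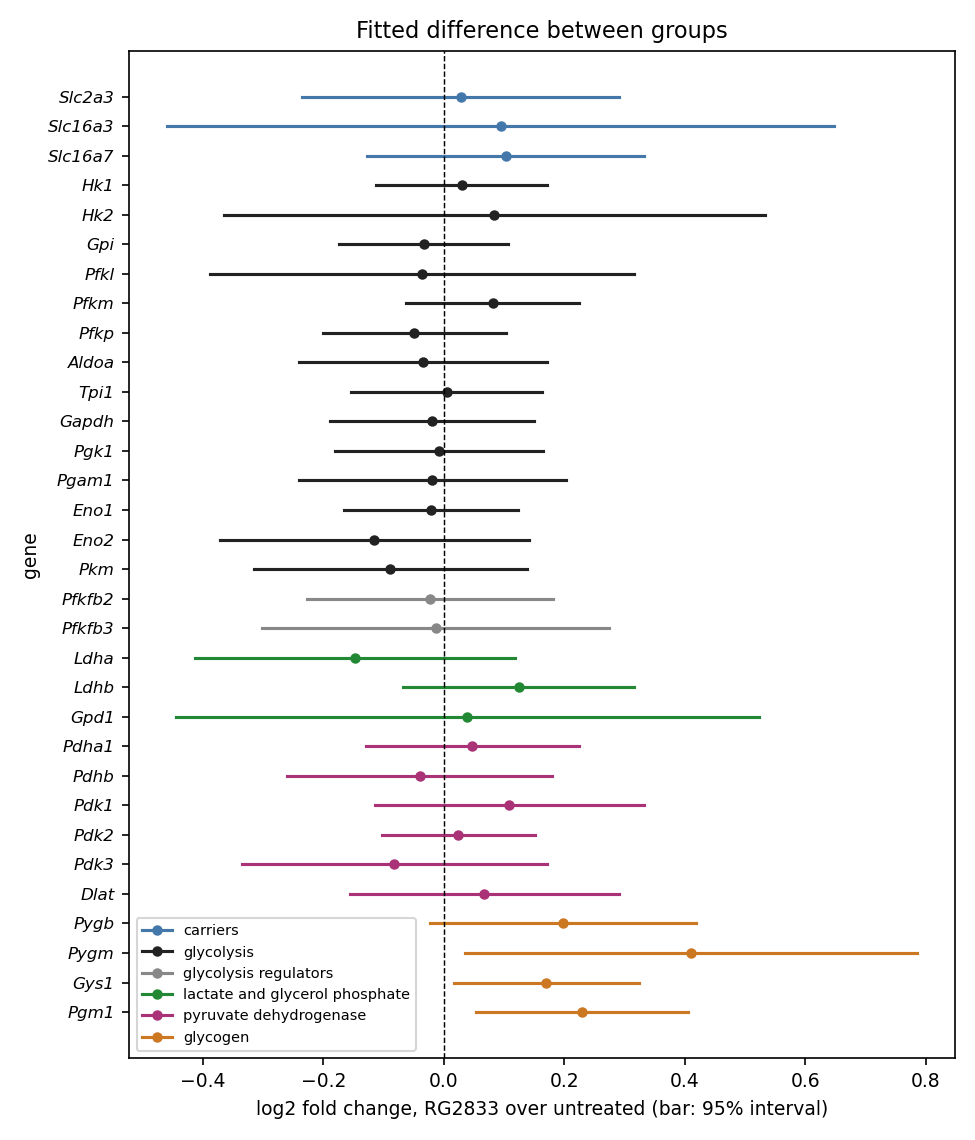
Fitted log2 fold change of each of the 32 genes, RG2833 over untreated (x axis), with the 95% interval as a bar and the genes coloured by role (5 libraries per group). Most intervals span 0, and those of Pygm, Gys1 and Pgm1, near the bottom, lie above it.

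**Figure D2:**
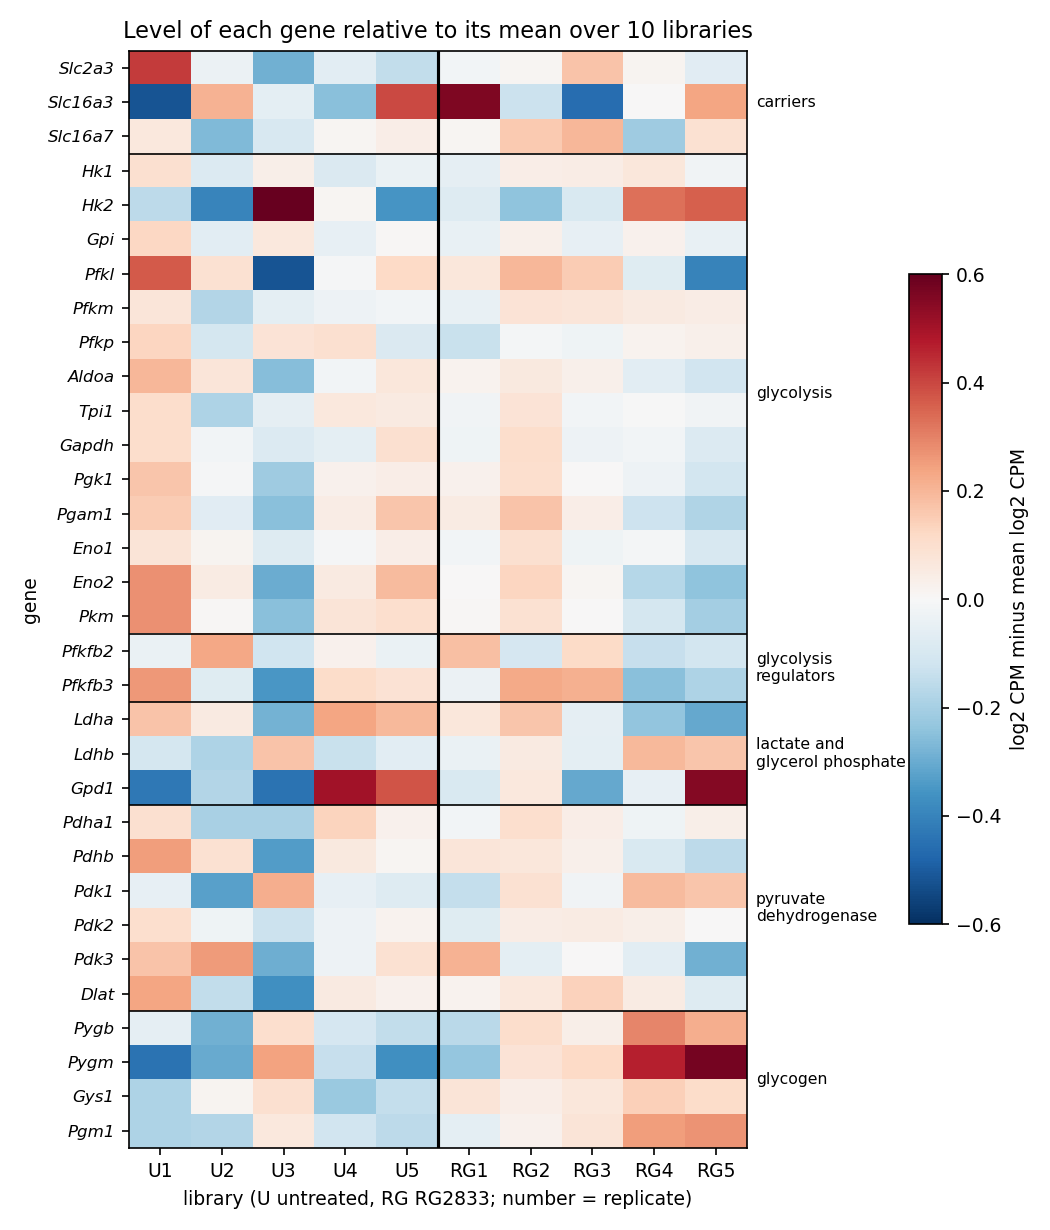
Level of each gene (rows) in each library (columns), as log2 CPM minus the gene's mean over the 10 libraries, with U1 to U5 for untreated and RG1 to RG5 for RG2833 replicates; the colour scale is capped at 0.6 in each direction. U3, RG4 and RG5 are blue for many glycolytic genes and red for the glycogen genes.

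The 3 carriers differed little between the groups. Slc2a3, the main glucose carrier of neurons, was at 59.0, 43.0, 36.1, 42.2 and 39.8 CPM in untreated replicates 1 to 5 and at 43.6, 44.4, 49.7, 44.6 and 42.1 CPM in the RG2833 replicates 1 to 5. Untreated replicate 1 was the highest and untreated replicate 3 the lowest, and all RG2833 libraries lay between them. The log2 fold change was 0.03 (SE 0.12, 95% interval -0.23 to 0.29, edgeR adjusted p = 0.992). Slc16a7 encodes the high-affinity monocarboxylate carrier through which neurons take up lactate. It was at 8.89, 7.07, 7.94, 8.57 and 8.74 CPM in the untreated and at 8.58, 9.48, 9.79, 7.33 and 9.06 CPM in the RG2833 replicates, a log2 fold change of 0.10 (SE 0.10, 95% interval -0.13 to 0.33, edgeR adjusted p = 0.921). The groups overlapped, although 4 of 5 RG2833 libraries were above the untreated mean. Slc16a3 encodes a monocarboxylate carrier that exports lactate and is used by astrocytes. Its counts were low, at 1.10, 1.90, 1.55, 1.35 and 2.171 CPM in the untreated and at 2.45, 1.48, 1.15, 1.63 and 1.94 CPM in the RG2833 replicates. With this spread of 2.24 times from lowest to highest library, its fold change was known least closely of the 32 (log2 0.09, SE 0.25, 95% interval -0.46 to 0.65, edgeR adjusted p = 0.980). The highest value came from RG2833 replicate 1, one of the libraries rich in choroid plexus markers, and without that library the log2 fold change was -0.06. The next highest, untreated replicate 5, was not rich in these markers, and without it the value was 0.23. Without untreated replicate 1, also not rich in them, it was -0.02. The part of choroid plexus in these values was not tested.

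Of the 14 glycolytic enzymes, 4 had a log2 fold change above 0 and 10 below 0, with a median of -0.02 and a range of -0.12 to 0.08. No glycolytic enzyme reached an unadjusted p under 0.05. Hk1, the hexokinase that traps glucose in brain cells, was at 688, 607, 658, 606 and 624 CPM in the untreated and at 619, 661, 662, 674 and 633 CPM in the RG2833 replicates. The RG2833 values lay within the untreated range, with a log2 fold change of 0.03 (SE 0.06, 95% interval -0.11 to 0.17, edgeR adjusted p = 0.976). Gapdh, which oxidises glyceraldehyde phosphate and is often used as a reference gene, was at 2993, 2749.8, 2624, 2665 and 2969 CPM in the untreated and at 2725, 2987, 2724, 2750.5 and 2624 CPM in the RG2833 replicates. Its lowest level was nearly the same in the 2 groups, and its log2 fold change was -0.02 (SE 0.08, 95% interval -0.19 to 0.15, edgeR adjusted p = 0.990).

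Eno2 and Pkm, which act near the end of glycolysis, had the lowest fitted values among the 14. Eno2, the neuron-specific enolase, was at 1312, 1121, 882, 1127 and 1239 CPM in the untreated and at 1086, 1185, 1093, 962 and 919 CPM in the RG2833 replicates (log2 fold change -0.12, SE 0.12, 95% interval -0.37 to 0.14, edgeR adjusted p = 0.921). Only RG2833 replicate 2 was above the untreated mean, yet the lowest of the 10 values was from untreated replicate 3. Pkm, the pyruvate kinase of brain, was at 1345, 1118, 935, 1173 and 1191 CPM in the untreated and at 1118, 1186, 1113, 1035 and 966 CPM in the RG2833 replicates (log2 fold change -0.09, SE 0.10, 95% interval -0.32 to 0.14, edgeR adjusted p = 0.939). The order was like that of Eno2, with untreated replicate 1 highest and untreated replicate 3 lowest. Without untreated replicate 3 the fold changes of Eno2 and Pkm were -0.19 and -0.155, and without untreated replicate 1 they were -0.06 and -0.03. The genes Gpi, Pfkm, Pfkp, Aldoa, Tpi1, Pgk1, Pgam1 and Eno1, which encode steps from glucose phosphate isomerase to enolase, had log2 fold changes between -0.05 and 0.08 with SEs of 0.06 to 0.10. Hk2, an inducible hexokinase, and Pfkl, the liver-type phosphofructokinase, were known less closely, at 0.08 (SE 0.20) and -0.04 (SE 0.16), and their lowest and highest libraries differed 2.02 and 1.85 times. The value of Hk2 ran from 0.00023 without untreated replicate 2 to 0.29 without untreated replicate 3.

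The regulators of phosphofructokinase also overlapped between groups. Pfkfb3, which makes the sugar bisphosphate that activates phosphofructokinase, was at 34.2, 27.2, 22.4, 30.9 and 30.3 CPM in the untreated and at 27.9, 33.4, 33.2, 24.0 and 25.2 CPM in the RG2833 replicates. The means were 29.0 ± 4.46 and 28.7 ± 4.42 CPM (SD, n = 5 each), and the log2 fold change was -0.01 (SE 0.13, 95% interval -0.30 to 0.28, edgeR adjusted p = 0.996). Pfkfb2, of the same family, had a log2 fold change of -0.02 (SE 0.09).

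The 2 lactate dehydrogenase subunits had fitted values of opposite sign, and neither passed. Ldha encodes the subunit that favours lactate production. It was at 411, 380, 301, 431 and 418 CPM in the untreated and at 383, 410, 353, 310 and 296 CPM in the RG2833 replicates (388 ± 52.5 and 351 ± 48.0 CPM, SD, n = 5 each). Untreated replicate 3 and RG2833 replicates 4 and 5 were the 3 low libraries, each near 300 CPM. The log2 fold change of -0.15 (SE 0.12, 95% interval -0.41 to 0.12) had an edgeR adjusted p of 0.905, and it ran from -0.23 without untreated replicate 3 to -0.09 without RG2833 replicate 5. Ldhb, whose subunit favours lactate use, was at 475, 449, 575, 465 and 488 CPM in the untreated and at 497, 531, 490, 584 and 573 CPM in the RG2833 replicates. The libraries that were low for Ldha were here the 3 highest, and the log2 fold change was 0.12 (SE 0.09, 95% interval -0.07 to 0.32, edgeR adjusted p = 0.882). Gpd1 makes glycerol phosphate from a glycolytic intermediate and is rich in oligodendrocytes. It was at 105, 125, 104, 201 and 184 CPM in the untreated and at 133, 148, 115, 137 and 207 CPM in the RG2833 replicates. This was the most variable of the 32 genes, with an SD of 0.37 on the log2 CPM scale over the 10 libraries. Untreated replicates 4 and 5 and RG2833 replicate 5 stood above the rest, and the log2 fold change of 0.04 (SE 0.22, 95% interval -0.45 to 0.52, edgeR adjusted p = 0.996) was far smaller than that spread.

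The promoter of Ldha is shown because it held more copies of the searched motifs than that of any glycogen gene. The window runs from 250 bases before to 50 bases after the start site in RefSeq's GRCr8 assembly, and capitals mark ACGTG, the core of the motif bound by hypoxia-inducible factor, and GCGTG, a variant of it, on either strand.
Ldha (chr1:106507842-106508141, + strand): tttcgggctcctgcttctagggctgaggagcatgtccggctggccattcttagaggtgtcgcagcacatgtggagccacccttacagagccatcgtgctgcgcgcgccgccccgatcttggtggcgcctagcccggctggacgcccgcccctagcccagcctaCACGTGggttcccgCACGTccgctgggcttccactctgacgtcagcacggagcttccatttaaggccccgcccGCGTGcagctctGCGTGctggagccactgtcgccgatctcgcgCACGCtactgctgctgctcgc
Such windows were present for 29 of the 32 genes. ACGTG, on either strand, occurred in 16 of the 29 (55.2%), in 19.3% of all 33469 windows and in 25.2% of the 9094 windows of tested genes. GCGTG occurred in 14 of 29 (48.3%), in 29.7% of all windows and in 49.0% of those of tested genes. The palindrome CACGTG, which always holds ACGTG, occurred in the windows of Ldha, Pfkfb3, Pdhb and Pdk2 (13.8%, against 6.42% of all windows and 9.04% of those of tested genes). GGGCGG, the core of the Sp1 motif, was in 17 of 29 (58.6%), 33.1% of all windows and 62.0% of those of tested genes. These are matches of letters and no measure of binding.

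The pyruvate dehydrogenase group had 4 genes with a log2 fold change above 0 and 2 below, all between -0.08 and 0.11. Pdk2, a kinase that switches the complex off, was at 249, 228, 213, 228 and 236 CPM in the untreated and at 221, 240, 241, 238 and 233 CPM in the RG2833 replicates. These values lay within 1.17 times of each other, and the log2 fold change of 0.02 had a narrow 95% interval of -0.10 to 0.15 (SE 0.06, edgeR adjusted p = 0.977). The other kinases, Pdk1 and Pdk3, were at 0.11 (SE 0.10) and -0.08 (SE 0.11). Leaving out 1 library moved Pdk1 between 0.05 (without untreated replicate 2) and 0.18 (without untreated replicate 3), and Pdk3 between -0.155 (untreated replicate 3 left out) and -0.02 (RG2833 replicate 5 left out). The subunits of the complex, Pdha1, Pdhb and Dlat, were at 0.05 (SE 0.08), -0.04 (SE 0.10) and 0.07 (SE 0.10).

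All 4 glycogen genes had higher mean levels in RG2833 than in untreated rats, and they gave the 4 largest log2 fold changes of the 32, with a median of 0.21 and a range of 0.17 to 0.41. Their promoters are shown in the same window and with the same marking as above, since these genes had the smallest p-values.
Pgm1 (chr5:119710484-119710783, + strand): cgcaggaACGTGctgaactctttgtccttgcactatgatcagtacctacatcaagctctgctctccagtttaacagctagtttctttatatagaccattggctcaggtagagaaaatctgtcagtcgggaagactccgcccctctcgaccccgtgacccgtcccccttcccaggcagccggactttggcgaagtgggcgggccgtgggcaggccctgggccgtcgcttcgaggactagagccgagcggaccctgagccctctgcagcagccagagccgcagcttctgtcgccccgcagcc
Gys1 (chr1:105051666-105051965, + strand): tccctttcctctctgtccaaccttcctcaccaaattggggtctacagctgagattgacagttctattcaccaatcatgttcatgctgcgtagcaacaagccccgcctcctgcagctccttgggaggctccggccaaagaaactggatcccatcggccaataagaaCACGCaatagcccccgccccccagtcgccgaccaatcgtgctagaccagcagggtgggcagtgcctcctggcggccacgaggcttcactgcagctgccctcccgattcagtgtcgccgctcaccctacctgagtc
Pygm (chr1:213119555-213119854, + strand): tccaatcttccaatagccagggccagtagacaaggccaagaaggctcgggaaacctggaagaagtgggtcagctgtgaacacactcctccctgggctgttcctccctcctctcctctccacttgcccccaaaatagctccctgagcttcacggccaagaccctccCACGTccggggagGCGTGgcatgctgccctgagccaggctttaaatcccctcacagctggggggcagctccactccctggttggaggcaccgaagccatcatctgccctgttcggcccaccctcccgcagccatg
Pygb (chr3:160071891-160072190, + strand): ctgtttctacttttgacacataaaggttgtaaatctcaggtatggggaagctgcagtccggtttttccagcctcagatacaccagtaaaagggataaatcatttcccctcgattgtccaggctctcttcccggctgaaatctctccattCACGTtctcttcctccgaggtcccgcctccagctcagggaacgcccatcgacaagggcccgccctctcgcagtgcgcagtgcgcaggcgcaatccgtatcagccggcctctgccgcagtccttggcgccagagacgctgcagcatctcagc
The windows of Pgm1, Pygm and Pygb each held 1 ACGTG, at different distances from the start, and that of Gys1 held a GCGTG only.

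Pgm1 encodes phosphoglucomutase, which interconverts the glucose phosphates on the way into and out of glycogen. It was at 87.6, 88.4, 104, 92.2 and 89.4 CPM in the untreated and at 95.7, 102, 105, 119 and 120.1 CPM in the RG2833 replicates (92.4 ± 6.89 and 108 ± 10.7 CPM, SD, n = 5 each). All RG2833 libraries were above the untreated mean, and untreated replicate 3 lay inside the RG2833 range. The log2 fold change was 0.23 (SE 0.08, 95% interval 0.05 to 0.40), with an edgeR unadjusted p of 0.0152, an adjusted p of 0.841 and an exact permutation p of 0.0238. Gys1, the glycogen synthase of brain and muscle, was at 35.7, 41.1, 43.4, 34.8 and 36.7 CPM in the untreated and at 42.8, 41.8, 42.6, 44.8 and 43.8 CPM in the RG2833 replicates (38.3 ± 3.72 and 43.1 ± 1.15 CPM). The RG2833 libraries lay close together, and untreated replicate 3 reached into their range while untreated replicate 2 came just under it. The log2 fold change was 0.17 (SE 0.07, 95% interval 0.02 to 0.32; edgeR unadjusted p = 0.0320, adjusted p = 0.841; exact permutation p = 0.0397).

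Pygm and Pygb encode the muscle and brain forms of glycogen phosphorylase, which releases glucose phosphate from glycogen. Pygm was at 103, 114, 166, 127 and 109 CPM in the untreated and at 119.6, 148, 153, 194 and 209 CPM in the RG2833 replicates (124 ± 25.3 and 165 ± 36.2 CPM). Untreated replicate 3 was above 3 of the RG2833 libraries, and RG2833 replicate 1 was below 1 further untreated library. The log2 fold change was 0.41 (SE 0.17, 95% interval 0.04 to 0.79; edgeR unadjusted p = 0.0348, adjusted p = 0.841; exact permutation p = 0.0794). Pygb was at 383, 325, 426, 371 and 359 CPM in the untreated and at 355, 427, 407, 487 and 461.5 CPM in the RG2833 replicates. Here 4 of 5 RG2833 libraries were above the untreated mean, and the log2 fold change was 0.20 (SE 0.10, 95% interval -0.02 to 0.42; edgeR unadjusted p = 0.0737, adjusted p = 0.841; exact permutation p = 0.0952). Both genes had counts that were not whole in 9 of 10 libraries, whereas their sum was whole in 10 of 10 within 0.011 counts, so reads matching both had been divided between them. Summed, they were at 496.5 ± 58.1 CPM in the untreated group and 592 ± 85.4 CPM in the other, a log2 fold change of 0.25 (SE 0.12; edgeR unadjusted p = 0.0511, adjusted p = 0.842).

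**Figure D3:**
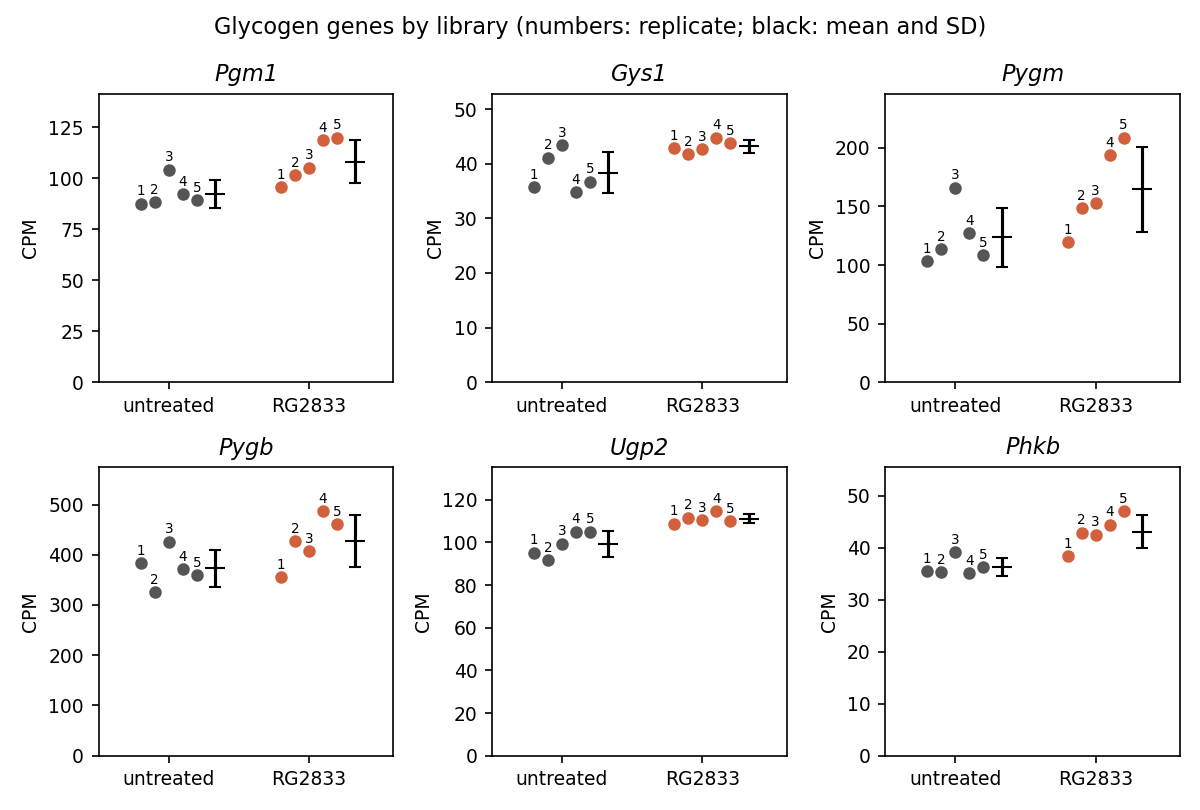
CPM of 4 of the 32 genes (Pgm1, Gys1, Pygm, Pygb) and of 2 further glycogen genes (Ugp2, Phkb) in each library, numbered by replicate, with the mean and SD of each group in black (n = 5). Untreated replicate 3 is the highest untreated library for 5 of these genes, all but Ugp2, and only Ugp2 has no overlap between groups.

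Marker lists leaned in both directions between the groups, and none passed a test. Of the astrocyte markers, all 9 tested of the 10 listed had a log2 fold change above 0 (median 0.33), 3 of them at an edgeR unadjusted p under 0.05 (against 5.66% of all genes tested), and none was at 0 or passed after adjustment. The list summed to 6116 to 9142 CPM in untreated libraries (median 7404 CPM) and 6936 to 10015 CPM in RG2833 libraries (median 9021 CPM). Its mean log2 CPM, centred over the 10 libraries, was -0.17 in untreated and 0.17 in RG2833 rats (exact permutation p = 0.0873). It was 0.23 in untreated replicate 3, the highest untreated library, and -0.23 in RG2833 replicate 1, the lowest RG2833 library, which are the extremes of their groups for Pygm and Pgm1 too. Of the CA1 pyramidal cell markers, 5 of 6 had a log2 fold change above 0 (median 0.25), with sums of 465 to 1126 CPM in untreated and 688 to 1009 CPM in RG2833 libraries (exact permutation p of the centred mean = 0.0635). Of the endothelium markers, 7 of 9 tested did (median 0.27), with sums of 367 to 684 and 447 to 776 CPM (exact permutation p = 0.381). Of the microglia markers, 7 of 10 did (median 0.06; exact permutation p = 0.738). Other lists leaned downward, with 1 of 11 neuron markers above 0 (median -0.04; exact permutation p = 0.817), 2 of 10 oligodendrocyte markers (median -0.14; exact permutation p = 0.730), and 0 of 4 CA3 pyramidal cell markers (median -0.14; exact permutation p = 0.817). For dentate granule cells the measures differed in sign, with 0 of 4 tested markers above 0 (median -0.03) but a mean centred log2 CPM of -0.06 in untreated and 0.06 in RG2833 rats (exact permutation p = 0.881). The part of these markers in the glycogen values was not tested. Skeletal muscle markers, listed because Pygm is the muscle form, summed to 13.2 to 22.3 CPM in the untreated and 14.5 to 20.4 CPM in RG2833 libraries.

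The levels of several of the 32 genes followed the cell type markers across the 10 libraries. These relations were examined after the values had been seen, over 160 pairs of a gene and 1 of 5 marker lists, with 100000 permutations each and p-values adjusted over the 160. By Pearson's r, 53 of the 160 passed, 14 with the neuron list, 9 with astrocytes, 1 with oligodendrocytes, 15 with microglia and 14 with endothelium, so many genes went with more than 1 list. The same relations were not computed for all genes tested, so these counts cannot be read as particular to the 32. Untreated replicate 3 and RG2833 replicates 4 and 5 were at the ends of several of these lists. They were the 3 lowest libraries for 15.9% and the 3 highest for 14.8% of all genes tested. All the libraries' values share the same depth scaling, and no marker is among the 32 genes. With the astrocyte list, Pygm had a Pearson r of 0.969 (permutation adjusted p = 0.0008) and a Spearman rho of 0.952 (adjusted p = 0.0112), and r was 0.941 without RG2833 replicates 4 and 5, the libraries farthest from the median. Pgm1 had r = 0.968 (permutation adjusted p = 0.00128), rho = 0.952 (adjusted p = 0.0112) and r = 0.943 without those libraries. For Pygb, r was 0.960 (permutation adjusted p = 0.0008), rho 0.879 (adjusted p = 0.0302) and r without them 0.923. With the mean of each group removed, r remained at 0.951 for Pygm, 0.961 for Pgm1 and 0.942 for Pygb. Gys1 did not pass (r = 0.672, permutation adjusted p = 0.1; rho = 0.782, adjusted p = 0.0509), and with the group means removed its r was 0.44. The glycogen genes were not tied to the astrocyte list alone. With the endothelium list, Gys1 had r = 0.769 (permutation adjusted p = 0.0379; rho = 0.818, adjusted p = 0.042), and 0.789 without untreated replicate 3 and RG2833 replicate 5, the farthest libraries there. Pygm had r = 0.825 with that list (permutation adjusted p = 0.0182; rho = 0.806, adjusted p = 0.0463), and 0.694 without them. With the microglia list, Pygm had r = 0.765 (permutation adjusted p = 0.0343; rho = 0.794, adjusted p = 0.0485), and 0.84 without the same 2 libraries. Pgm1 passed with endothelium by Pearson's r only (0.764, permutation adjusted p = 0.0381; rho = 0.709, adjusted p = 0.0964; 0.655 without them). Pygb passed with microglia by Pearson's r only (0.731, permutation adjusted p = 0.0461; rho = 0.721, adjusted p = 0.0904; 0.904 without them). The astrocyte list left a gap between the 5 lower libraries (up to -0.17) and the 5 higher ones (from 0.11 on), and neither side had the 6 libraries needed for an r of its own.

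With the neuron list, 14 of the 32 genes had a positive Pearson r that passed and 0 a negative one, and 7 also passed by Spearman's rho. The share of all genes tested that would pass was not computed here either, so the count cannot be read as particular to the 32 genes. Pfkfb3 had r = 0.946 (permutation adjusted p = 0.0008), rho = 0.927 (adjusted p = 0.0205) and r = 0.928 without untreated replicates 1 and 3, the farthest libraries. For Pkm, r was 0.945 (permutation adjusted p = 0.002), rho 0.806 (adjusted p = 0.0463) and r without them 0.849. Eno2 had r = 0.923 (permutation adjusted p = 0.00247), rho = 0.855 (adjusted p = 0.0302) and r = 0.83 without them. The relations of Slc2a3 (r = 0.766, permutation adjusted p = 0.0379; rho = 0.588, adjusted p = 0.191) and Pdk2 (r = 0.741, permutation adjusted p = 0.0464; rho = 0.709, adjusted p = 0.0974) rested on those 2 libraries, since r was 0.23 and 0.259 without them. Ldha and Ldhb each went with several lists, with opposite signs for astrocytes, microglia and endothelium. Ldhb had r = 0.906 with the astrocyte list (permutation adjusted p = 0.0044; rho = 0.867, adjusted p = 0.0302), and 0.815 without the 2 farthest libraries. Ldha had r = 0.788 with the neuron list (permutation adjusted p = 0.0312; rho = 0.697, adjusted p = 0.104), and 0.743 without untreated replicates 1 and 3. Its r with the endothelium list was larger in size, at -0.892 (permutation adjusted p = 0.00653; rho = -0.867, adjusted p = 0.0302; -0.751 without the 2 farthest libraries). With the astrocyte list it was -0.802 (permutation adjusted p = 0.0331; rho = -0.673, adjusted p = 0.12; -0.608 without the farthest). Ldhb had r = 0.89 with microglia (permutation adjusted p = 0.00357; rho = 0.83, adjusted p = 0.0377; 0.931 without the farthest) and 0.76 with endothelium (permutation adjusted p = 0.0428; rho = 0.661, adjusted p = 0.129; 0.544 without the farthest). Ldha had r = -0.788 with microglia (permutation adjusted p = 0.0331; rho = -0.503, adjusted p = 0.265; -0.528 without the farthest). The 3 libraries lowest for Ldha and highest for Ldhb were those with the highest astrocyte, microglia and endothelium markers. Pkm and Eno2 also had negative r with endothelium, -0.923 (permutation adjusted p = 0.00247; rho = -0.842, adjusted p = 0.0334; -0.843 without the farthest) and -0.914 (permutation adjusted p = 0.00395; rho = -0.855, adjusted p = 0.0321; -0.828 without the farthest). Gpd1 was high in the same 3 libraries as the oligodendrocyte list, whose 10 values fell into 7 low libraries (up to 0.00389) and 3 high ones (from 0.392 on), so no r over all 10 is given. Over the 7 low libraries r was 0.699 (exact permutation p = 0.0804) and rho 0.679 (exact permutation p = 0.11), so the relation was not shown within them.

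**Figure D4:**
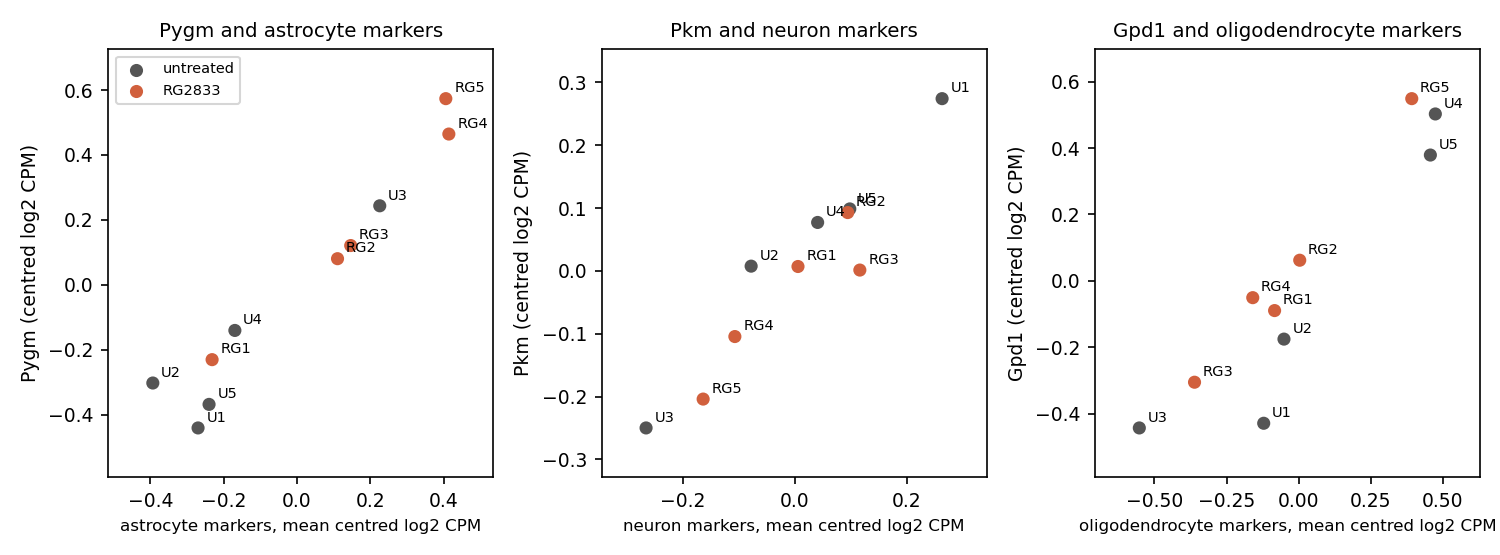
Centred log2 CPM of Pygm, Pkm and Gpd1 (y axes) against the mean centred log2 CPM of the astrocyte, neuron and oligodendrocyte marker lists (x axes), 1 point per library (U untreated, RG RG2833, number = replicate). Points of the 2 groups lie along the same line for Pygm. For Pkm, RG3 and RG4 lie below their nearest untreated points on the x axis, U5 and U2. For Gpd1, U4, U5 and RG5 stand apart at the upper right.

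Untreated replicate 3 and RG2833 replicates 4 and 5 stood together in these genes. They were the 3 lowest of the 10 libraries for 11 of the 32 genes (34.4%, against 15.9% of all genes tested), among them Pfkl, Aldoa, Pgk1, Pgam1, Eno2, Pkm, Ldha and Pfkfb3. They were the 3 highest for 5 genes (15.6%, against 14.8% of all genes tested), namely Hk2, Ldhb, Pdk1, Pygm and Gys1. The 3 libraries were picked out after the values had been seen, and no test was made of them. They stood apart in cell type markers too. CA3 pyramidal cell markers summed to 133, 247 and 177 CPM in them, against 410 to 517 CPM in the other 7 libraries. By mean centred log2 CPM they were the 3 lowest libraries for the neuron list (-0.27, -0.11 and -0.16) and the 3 highest for astrocytes (0.23, 0.41 and 0.41), microglia (0.62, 0.22 and 0.31) and endothelium (0.46, 0.31 and 0.62). The part of these markers in the values of the 32 genes was not tested. Without these 3 libraries, 4 untreated and 3 RG2833 libraries remained. Pgm1, Gys1 and Pygm were then the genes at an edgeR unadjusted p under 0.05 (3 of 32, beside 5.37% of all genes), and 0 had an adjusted p under 0.05. The log2 fold changes of Pgm1 (0.17) and Pygb (0.14) were their lowest over the alternatives, those of Gys1 and Pygm were not. The astrocyte list was at -0.27, -0.39, -0.17 and -0.24 in untreated replicates 1, 2, 4 and 5. It was at -0.23, 0.11 and 0.15 in RG2833 replicates 1 to 3.

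Ratios of related enzymes within a library do not depend on depth scaling, and 10 such pairs were compared by exact permutation tests. None passed after adjustment over the 10 pairs, and the groups overlapped for all of them. The ratio of Pfkm to Pfkp, the muscle and platelet forms of phosphofructokinase, came closest, with a log2 ratio of 0.59 ± 0.09 in untreated and 0.72 ± 0.04 in RG2833 rats (SD, n = 5 each; exact permutation p = 0.0238, adjusted p = 0.238). The log2 ratio of Ldha to Ldhb was -0.34 ± 0.34 in untreated and -0.62 ± 0.29 in RG2833 rats, a difference of -0.27 (exact permutation p = 0.183, adjusted p = 0.608). For Pygb to Pygm it was 1.61 ± 0.20 and 1.40 ± 0.17, a difference of -0.21 (exact permutation p = 0.143, adjusted p = 0.608). The other 7 differences lay between -0.10 and 0.09.

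**Figure D5:**
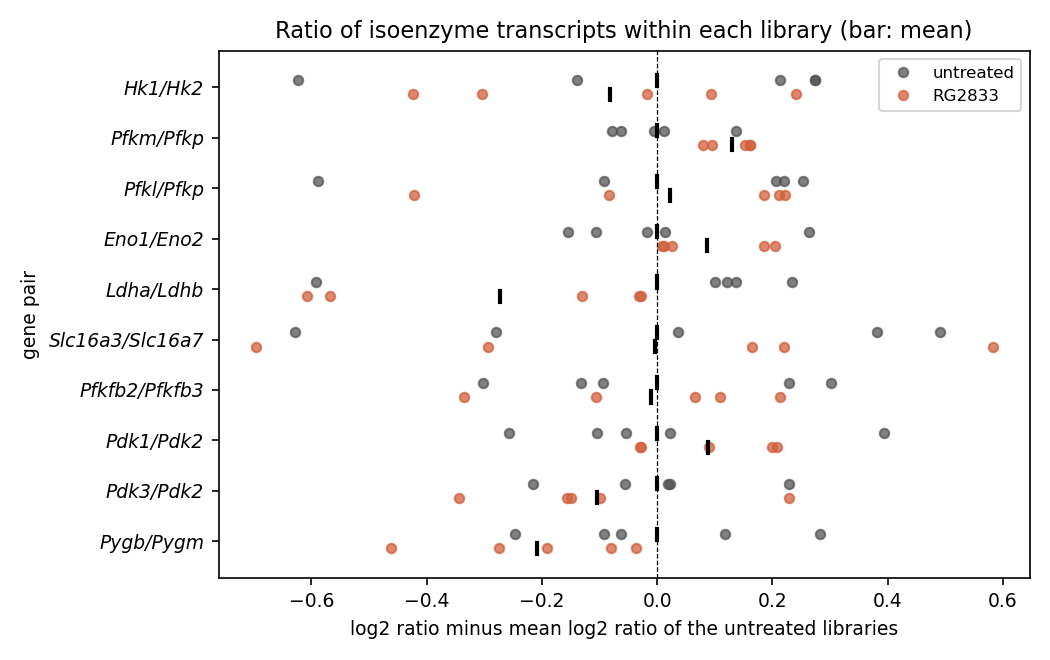
Log2 ratio of CPM for 10 pairs of related genes in each library, relative to the mean of the untreated libraries (x axis), with untreated libraries in grey, RG2833 libraries in orange and group means as black bars (n = 5 each). The RG2833 points for Pfkm over Pfkp sit in the upper part of the untreated range or just above it, and 1 untreated point for Ldha over Ldhb lies with the 2 lowest RG2833 points.

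Further genes of these pathways were read from lists of 98 names, of which 89 were in the table and 78 were tested. Of the 78, 45 had a log2 fold change above 0 and 33 below, 7 were higher and 1 lower at an edgeR unadjusted p under 0.05, and 0 passed after adjustment. Of all 12161 genes tested, 5652 had a log2 fold change above 0, 2.94% were higher and 2.71% lower at that p, and the median was -0.01. The list of other glycogen genes had 17 of 23 above 0, a median of 0.10, and 3 at an unadjusted p under 0.05, all higher (against 2.94% of all genes tested). Ugp2, which makes the UDP-glucose used by glycogen synthase, was at 95.1, 91.7, 99.4, 105 and 104.9 CPM in the untreated and at 109, 112, 110.5, 115 and 110.0 CPM in the RG2833 replicates. The groups did not overlap, as for 1.00% of all genes tested. The log2 fold change was 0.16 (SE 0.05, edgeR unadjusted p = 0.0113, adjusted p = 0.841). The exact permutation p was 0.00794, the smallest that 5 against 5 can give, and was not adjusted for the 78 genes read. Phkb and Phka1 encode subunits of phosphorylase kinase, which switches glycogen phosphorylase on. Phkb was at 35.5, 35.3, 39.2, 35.1 and 36.3 CPM in the untreated and at 38.5, 42.9, 42.5, 44.5 and 47.1 CPM in the RG2833 replicates (log2 fold change 0.25, SE 0.06; edgeR unadjusted p = 0.00265, adjusted p = 0.841). Phka1 had a log2 fold change of 0.22 (SE 0.08; edgeR unadjusted p = 0.0212, adjusted p = 0.841). Pygl, the liver form of glycogen phosphorylase, was at the other end of the list, with a log2 fold change of -0.32.

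Among 12 other carriers, 5 had a log2 fold change above 0. Mpc2, a subunit of the mitochondrial pyruvate carrier, was at 34.6, 34.5, 33.2, 35.4 and 36.1 CPM in the untreated and at 40.3, 38.4, 36.8, 37.8 and 38.0 CPM in the RG2833 replicates. The groups had no overlap, as for 1.00% of all genes tested (log2 fold change 0.14, SE 0.05, edgeR unadjusted p = 0.0163, adjusted p = 0.841). Its partner Mpc1 was at 0.10 (SE 0.07), and ran from 0.06 (without the choroid-rich pair of libraries) to 0.14 (without untreated replicate 4). Slc2a1, the glucose carrier of the blood-brain barrier and astrocytes, was at 0.14 (SE 0.19), and Slc16a1, a lactate carrier of endothelium and glia, at 0.19 (SE 0.09, edgeR unadjusted p = 0.0571). Over the alternatives, the value of Slc2a1 ran from 0.03 (without untreated replicate 3 and RG2833 replicates 4 and 5) to 0.28 (without untreated replicate 3 alone). That of Slc16a1 ran from 0.04 (without the same 3 libraries) to 0.25 (without untreated replicate 4). Of 10 other glycolytic enzymes tested, 7 were above 0 and none reached an unadjusted p under 0.05. Aldoc, the astrocyte aldolase, was at 1049 ± 315 CPM in the untreated and at 1404 ± 319 CPM in the RG2833 rats (SD, n = 5 each; log2 fold change 0.42, SE 0.21, edgeR adjusted p = 0.841).

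Of the remaining lists, other pyruvate dehydrogenase genes had 3 of 6 above 0. Pdp1, a phosphatase that switches the complex on, was at 34.7 ± 5.28 CPM in the untreated and at 29.4 ± 1.203 CPM in the RG2833 rats (SD, n = 5 each; log2 fold change -0.24, SE 0.10, edgeR unadjusted p = 0.0309, adjusted p = 0.841). The kinase Pdk4 was at 0.16 (SE 0.30), and ran from 0.03 to 0.33 when single libraries were left out. The shuttles that carry reducing equivalents into mitochondria had 2 of 8 above 0, among them Gpd2, the mitochondrial partner of Gpd1, with means of 39.6 ± 3.12 and 45.7 ± 3.26 CPM in the 2 groups (log2 fold change 0.21, SE 0.07, edgeR unadjusted p = 0.0146, adjusted p = 0.841). Gluconeogenesis genes had 1 of 3 above 0. The hypoxia list, with 10 of 16 above 0 and a median of 0.07, included Vhl, which marks hypoxia-inducible factor for breakdown, at 0.22 (SE 0.07, edgeR unadjusted p = 0.0135, adjusted p = 0.841). P4ha1, a collagen prolyl hydroxylase, was at 0.19 (SE 0.08, edgeR unadjusted p = 0.0425, adjusted p = 0.841). Hif1a itself was at -0.05 (SE 0.10) and Vegfa, a target gene of it, at 0.11 (SE 0.11), with 0.03 without RG2833 replicate 5 and 0.19 without untreated replicate 3.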

How the data were processed

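Per the labels, total RNA was purified on columns and sequenced from stranded mRNA libraries. The deposited table of expected counts per gene, made with RSEM, was the input. A deposited table of TMM-scaled CPM signal by the authors served as an alternative: its values were whole multiples of 1 step in 100% of cases (within 0.05 reads), and 99.93% of the reads recovered equalled the rounded expected counts. The submitters' processing notes name bcl2fastq 2.17, Bowtie2 2.1.0, RSEM 1.2.15, edgeR and the build rn6; their roles and the annotation are not given in the sources used here. Of all expected counts, 11.6% were not whole, and they were rounded. Of the 32 genes, Aldoa, Tpi1, Gapdh, Pygb and Pygm had such counts and so share reads with similar sequences.

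Genes were kept by filterByExpr (minimum count 10, minimum total 15), scaled by TMM and tested with edgeR 4.0.16 in R 4.3.3 (quasi-likelihood F test, robust, Benjamini-Hochberg over 12161 genes, threshold 0.05). Alternatives used DESeq2 1.42.0 and limma 3.58.1, other scalings and filters, a replicate term and left-out libraries. Both groups had 5 libraries, each 1 rat. CPM are on the TMM-scaled library size, and log2 CPM used a prior count of 2. Permutation tests were two-sided, over 252 regroupings in exact tests between groups. Scripts were tested on simulated data. No 2 libraries were counted as 1 (45 pairs compared), and 0 columns belonged to no sample. Without molecular identifiers the reads may include copies of 1 molecule.

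The members and lists were chosen with earlier results of these data known. Values of every library are given for genes at an unadjusted p under 0.05, or the 3 smallest p per direction, for the 3 most variable genes, and for Hk1, Pfkfb3, Gapdh, Pkm, Ldha, Ldhb, Slc2a3, Slc16a3, Slc16a7, Pdk2, Pygb and Gys1. Of the wider lists, genes at an unadjusted p under 0.05 are named, with Slc2a1, Slc16a1, Aldoc, Pdk4, Mpc1, Hif1a and Vegfa in any case; Pygl was named after its value was seen. Promoter windows were read from RefSeq (GRCr8); no genome of the counts' build was used, so no other coordinates are given.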

Additional observations from a re-analysis of the deposited data

Results flagged for a closer look

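In 84 sets of 5 libraries (64 sets of log2 CPM of the 32 genes and 20 sets of the ratios), the most extreme library's gap to its nearest neighbour was compared with the group's whole range, against a critical share of 0.71. Chance alone gives about 1 in 20 such cases, or 4.2 of 84, and 2 were found. The log2 ratio of Ldha to Ldhb in untreated replicate 3 lay below the other untreated libraries by 0.838 of that group's range. The log2 CPM of Tpi1 in RG2833 replicate 2 lay above the other RG2833 libraries by 0.818 of that group's range.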

How the results depend on the processing

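Under the 20 alternatives to the reported fit, 0 of the 32 genes passed; DESeq2 called 7 genes in all, and every other alternative called 0. The number of the 32 at an unadjusted p under 0.05 ran from 1.0 to 5.0 when single libraries were left out, beside 3.07% to 14.2% of all genes tested, and was 2 with upper-quartile normalization (5.42% of all genes). Of these 20, Pgm1 had an unadjusted p under 0.05 in 20, Gys1 and Pygm in 14 and Pygb, which did not in the reported fit, in 4. The alternatives reuse the same libraries, and the recovered reads nearly equal the input, so these counts are no independent support. The share of all genes that did so was not computed. The direction of 17 genes held under all 19 alternatives other than the recovered reads, and that of 15 did not. Log2 fold changes changed sign for Tpi1 with upper-quartile normalization (-0.00180), with limma-voom (-0.0173), without the choroid-rich pair (-0.0390) and without untreated replicate 3 and RG2833 replicates 4 and 5 (-0.00167), for Slc16a3 with limma-voom (-0.0266) and without the choroid-rich pair (-0.00804), and for Gpd1 with limma-voom (-0.14). Without those 3 libraries, an alternative chosen after seeing the data, the values were -0.23 for Gpd1, 0.00862 for Pgam1, -0.00621 for Slc2a3, 0.0165 for Pfkfb2, 0.0358 for Pfkfb3, -0.0117 for Pdk2 and -0.16 for Pdk4. Leaving out single libraries moved Pfkl from -0.146 to 0.0602, Aldoa from -0.0956 to 0.0146, Tpi1 from -0.038 to 0.0322, Gapdh from -0.0495 to 0.00549, Pgk1 from -0.0579 to 0.0345, Pgam1 from -0.0785 to 0.0246, Eno1 from -0.0489 to 0.0025, Slc2a3 from -0.0342 to 0.156, Slc16a3 from -0.0647 to 0.226, Pfkfb2 from -0.074 to 0.0373, Pfkfb3 from -0.0921 to 0.053, Pdhb from -0.117 to 0.0218, Pdk2 from -0.00368 to 0.0532, Dlat from -0.00662 to 0.141, Gpd1 from -0.11 to 0.19 and Hif1a from -0.12 to 0.0046. It moved the log2 ratio differences of Hk1 to Hk2 from -0.24 to 0.0034, Pfkl to Pfkp from -0.12 to 0.13, Slc16a3 to Slc16a7 from -0.16 to 0.17 and Pfkfb2 to Pfkfb3 from -0.0863 to 0.0705. Without changing sign, single left-out libraries also moved Hk1 (0.01 to 0.06), Gpi (-0.05 to -0.0044), Pfkm (0.05 to 0.11), Pfkp (-0.08 to -0.02), Ldhb (0.09 to 0.19), Slc16a7 (0.05 to 0.17) and Pdha1 (0.0064 to 0.09) by over 1.5 times. The cause was not tested. The replicate numbers did not pair the libraries: same-numbered libraries correlated at -0.49 to -0.03, and 0 of 5 pairs was best with its own number. With the replicate block, 0 genes passed and 2 of the 32, Pygm and Pgm1, had an unadjusted p under 0.05, beside 3.3% of all genes. With 5 rats a group and a biological coefficient of variation of 21.0%, no log2 fold change of the 32, at most 0.41, passed. Slc16a3 had the fewest counts of the 32, at 1.10 to 2.45 CPM.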
